A study of Rattus norvegicus with 6 samples.

Results

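The genes described here encode splicing factors and core spliceosome proteins, taken from the deposited table of rat genes by the start of their symbol: Snrp, Sf3a, Sf3b, Prpf, Lsm followed by a digit, Srsf, or Hnrnp. The rule found 86 of 23091 genes, with 16 under Snrp, 3 under Sf3a, 6 under Sf3b, 13 under Prpf, 14 under Lsm, 12 under Srsf and 22 under Hnrnp. They carry 81 different symbols, since Hnrnpa1, Hnrnpf, Lsm5, Snrpc and Snrpg each stand on a pair of identifiers. A further 29 genes have such a symbol in capitals and were not counted as members. Of those, 24 had no count in any sample, and the most abundant, a copy named HNRNPK, had at most 79 counts in a sample. The samples were rat mesenchymal stem cells of marrow, of wild-type genotype, kept for 7 days in a neural differentiation medium. The control group, called CK, received the solvent DMSO (n = 3), and the other group received CYSP, which the labels do not spell out (n = 3). Polyadenylated RNA was sequenced, and the study asked what changes in gene expression go with conversion towards neurons under CYSP. The labels do not say whether the samples of a group were separate cultures or animals, so the p-values cover only how these libraries varied, and that variation may be technical.

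Introns are removed by the spliceosome, which is built on each pre-mRNA from small nuclear RNA-protein particles named U1, U2, U4, U5 and U6 after their RNAs. U1 reads the start of the intron and U2 its branch point, and the joined U4, U5 and U6 particle then brings in the parts that form the catalytic centre. SR proteins (Srsf genes) mostly favour the use of exons they bind, and heterogeneous nuclear ribonucleoproteins (Hnrnp genes) coat the nascent RNA and often oppose it, so that the balance of these families helps to set which exons a cell keeps. Neurons are known for a splicing programme of their own, run by regulators such as Nova, neuronal Celf proteins and Srrm4, with Ptbp1 holding neuronal exons back in other cells.

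Libraries held 15060933 to 17244700 counts. Genes with enough counts were tested with edgeR's quasi-likelihood test on the counts, with Benjamini-Hochberg adjustment over 12623 genes and a threshold of 0.05, and levels are given as CPM (each library's counts scaled to a common total, with TMM factors). At this depth 3 counts correspond to between 0.174 and 0.199 CPM. The groups stood far apart: 4828 genes were higher and 4772 lower in CYSP. The marker lists moved too. The summed level of 6 macrophage and leukocyte markers was 889 ± 60.2 CPM in CK and 394 ± 1.12 CPM in CYSP (SD, n = 3 each), 5 of the 6 fell, and none was at 0. All 4 proliferation markers fell, from a sum of 519 ± 32.8 to 196 ± 4.92 CPM. Of 8 marrow stromal markers 4 rose and 3 fell, with a sum of 42135 ± 979 CPM in CK and 11263 ± 441 CPM in CYSP that is mostly Col1a1. Of 6 neuron markers only Snap25 had enough counts to test and rose, and Rbfox3 was at 0 counts in every sample. The part of these cells in the results below was not tested, and in such bulk samples fewer cells of a type and less RNA per cell cannot be told apart.

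Most splicing genes were lower in CYSP. Of the 86 members 80 had enough counts to test, 4 had no count in any sample and 2 fell under the count filter. Of the 80 tested, 54 were lower (67.5%, against 37.8% of all genes tested) and 11 were higher (13.8%, against 38.2% of all genes tested), and 15 did not pass the test. Their median log2 fold change was -0.38, beside 0.00 for all genes. The changes were small in size, with a median absolute log2 fold change of 0.43 for the members and 0.53 for all genes. At a further requirement of a 1.5-fold change, 19 members were lower (23.8%, against 21.5% of all genes) and 7 higher (8.75%, against 24.0%). So the share of members that fell by at least 1.5-fold was near that of all genes, and the share that rose was below it. The 3 CYSP samples lay below the 3 CK samples without overlap for 55 members, where 38.2% of all genes did so, and above them for 11 members, where 38.8% of all genes did so. Among genes with a mean of at least 10 CPM, 53 of 73 members were lower (41.3% of all such genes) and 9 were higher (40.0% of all such genes).

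**Figure D1:**
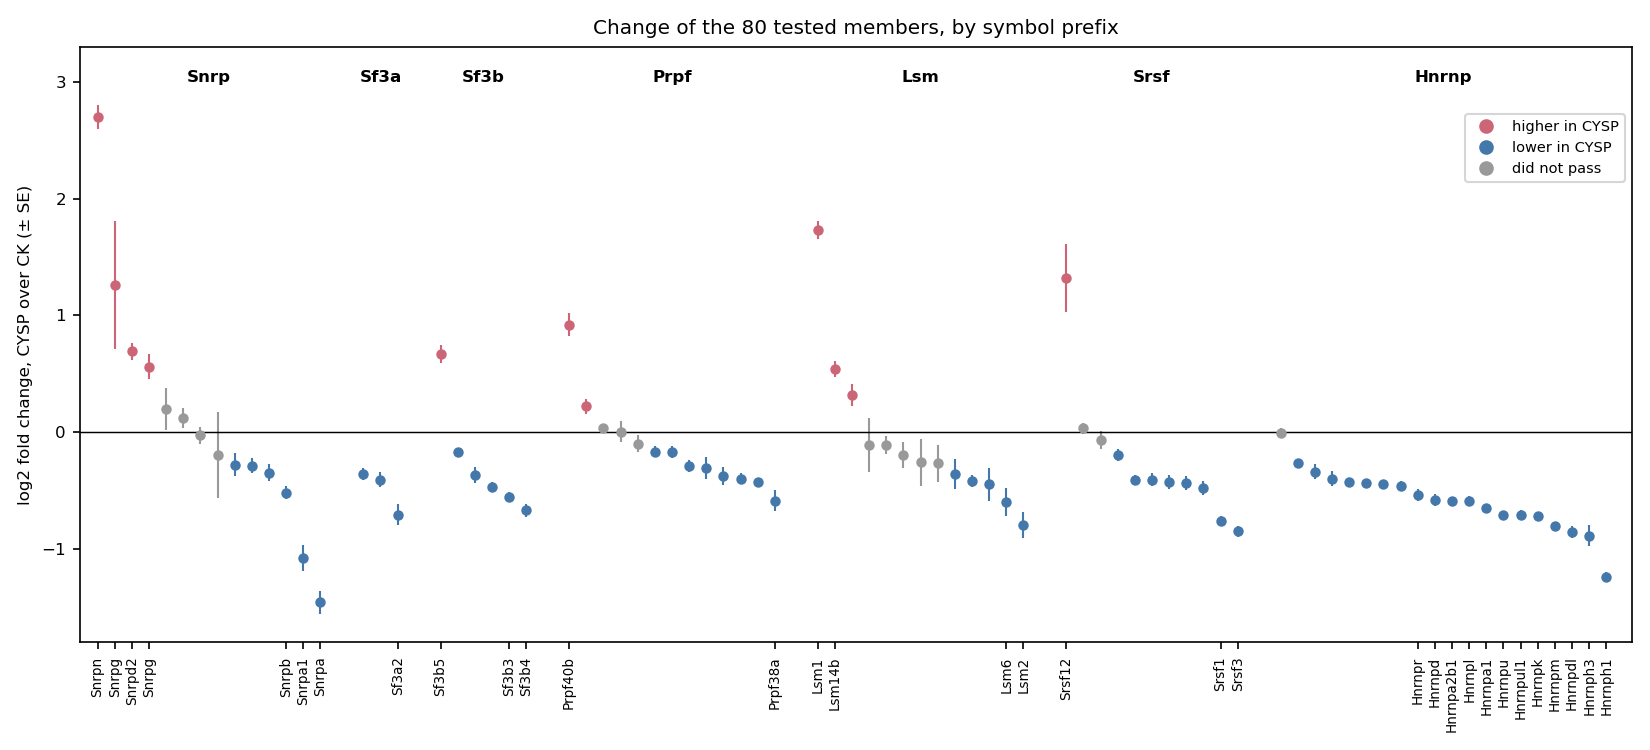
Log2 fold change of CYSP over CK for the 80 tested members, grouped by symbol prefix, with bars for the standard error of the fitted change and names on members that changed by at least 0.5 on the log2 scale. Each prefix has most of its points below 0, Hnrnp has none above 0, and Snrpn at 2.70 and Lsm1 at 1.73 stand highest.

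The promoter windows of 5 members are shown here. Snrpa, Hnrnph1 and Snrpn are members still called at an assumed coefficient of variation of 0.4, as described at the end. Lsm1 was called there too, but no single window was matched to its symbol. Hnrnpa2b1 and Srsf1 were added. Snrpa and Hnrnph1 had the largest falls of all members, Hnrnpa2b1 and Srsf1 were among the abundant members that fell, and Snrpn had the largest rise. Each is the 250 bases before the first start that RefSeq lists for the gene in the GRCr8 assembly, written 5′ to 3′ on the gene's strand. Capitals mark matches to a CCAAT box (CCAAT or ATTGG) or a GC box (GGGCGG or CCGCCC).
Snrpa (chr1:91618043-91618292, minus strand): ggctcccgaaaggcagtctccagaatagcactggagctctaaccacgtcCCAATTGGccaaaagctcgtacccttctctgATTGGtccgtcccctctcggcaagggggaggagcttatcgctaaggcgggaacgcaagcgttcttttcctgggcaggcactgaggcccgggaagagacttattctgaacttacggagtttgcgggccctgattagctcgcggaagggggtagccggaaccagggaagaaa
Hnrnph1 (chr10:35194383-35194632, plus strand): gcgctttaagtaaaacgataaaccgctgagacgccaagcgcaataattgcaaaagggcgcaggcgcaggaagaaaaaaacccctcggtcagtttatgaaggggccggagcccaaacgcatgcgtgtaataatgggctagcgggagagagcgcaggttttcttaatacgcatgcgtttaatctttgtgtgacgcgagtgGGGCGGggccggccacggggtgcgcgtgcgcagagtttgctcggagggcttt
Hnrnpa2b1 (chr4:81875887-81876136, minus strand): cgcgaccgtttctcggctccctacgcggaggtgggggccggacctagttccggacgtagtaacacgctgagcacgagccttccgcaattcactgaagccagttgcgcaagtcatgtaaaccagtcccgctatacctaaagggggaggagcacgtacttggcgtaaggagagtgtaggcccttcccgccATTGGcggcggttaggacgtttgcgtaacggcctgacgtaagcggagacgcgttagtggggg
Srsf1 (chr10:73336248-73336497, plus strand): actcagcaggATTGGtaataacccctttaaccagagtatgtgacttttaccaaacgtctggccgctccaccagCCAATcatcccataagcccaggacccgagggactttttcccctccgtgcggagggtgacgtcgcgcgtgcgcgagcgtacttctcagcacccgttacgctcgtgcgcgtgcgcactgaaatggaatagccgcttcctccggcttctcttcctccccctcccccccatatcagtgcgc
Snrpn (chr1:120338920-120339169, minus strand): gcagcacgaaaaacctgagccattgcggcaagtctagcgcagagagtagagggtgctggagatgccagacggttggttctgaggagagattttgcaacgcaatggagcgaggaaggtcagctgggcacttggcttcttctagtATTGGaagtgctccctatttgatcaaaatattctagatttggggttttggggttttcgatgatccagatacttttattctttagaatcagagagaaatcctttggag

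Of 79 tested member symbols 73 had such a window, and 6 short motifs were searched in it on both strands. In these 73 windows the median GC content was 58% and the median number of CG dinucleotides 19, where the windows of all 27457 genes in the RefSeq table had 52% and 6. The member windows are of genes with enough counts to test, and the windows of all genes were not filtered for expression. Whether other expressed genes differ from all windows in the same way was not tested. The GC box GGGCGG was present in 41 member windows (56.2%) and in 32.4% of all windows. The ETS-type motif CCGGAAG was present in 18 member windows (24.7%) and in 7.74% of all windows, and CCAAT in 34 (46.6%) and 34.3%. The E-box CACGTG was found in 7 member windows (9.59%, 5.79% of all), the TATA-box letters TATAAA in 6 (8.22%, 13.1% of all) and the NRF1-type letters GCGCATGC in 6 (8.22%, 2.38% of all). None of the 6 motifs contains another. Among the 50 windows of members that fell, 31 held the GC box and 12 the ETS-type motif, and among the 9 windows of members that rose 3 and 3 did. The Snrpn window had 7 CG dinucleotides and a GC content of 46.4%, and the Hnrnpa2b1 window had 26 and 60.4%. These matches describe letters in a window and are not evidence of binding.

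Summed over all 86 members, the level was 8292, 8401 and 8352 CPM in the CK samples and 6173, 6303 and 6264 CPM in the CYSP samples, a ratio of 0.748. As a share of all raw counts, members took between 0.852% and 0.865% in CK and between 0.596% and 0.614% in CYSP. The Hnrnp genes alone made up 57% of the members' summed CPM in CK and 51.4% in CYSP, and their sum went from 4760 ± 28.8 to 3208 ± 56.4 CPM. The Srsf sum went from 955 ± 11.9 to 692 ± 8.9 CPM, that of Sf3a from 151 ± 3.04 to 111 ± 2.34 CPM and that of Sf3b from 807 ± 18 to 654 ± 14.7 CPM. The Prpf sum was closer, at 1065 ± 16.4 and 968 ± 2.31 CPM. The sums of the Snrp and Lsm genes overlapped between groups, at 340 ± 12.3 and 330 ± 16.9 CPM for Snrp and 272 ± 6.99 and 282 ± 8.14 CPM for Lsm. Both sums combine genes that rose, such as Snrpn and Lsm1, with genes that fell, such as Snrpa and Lsm14a.

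**Figure D2:**
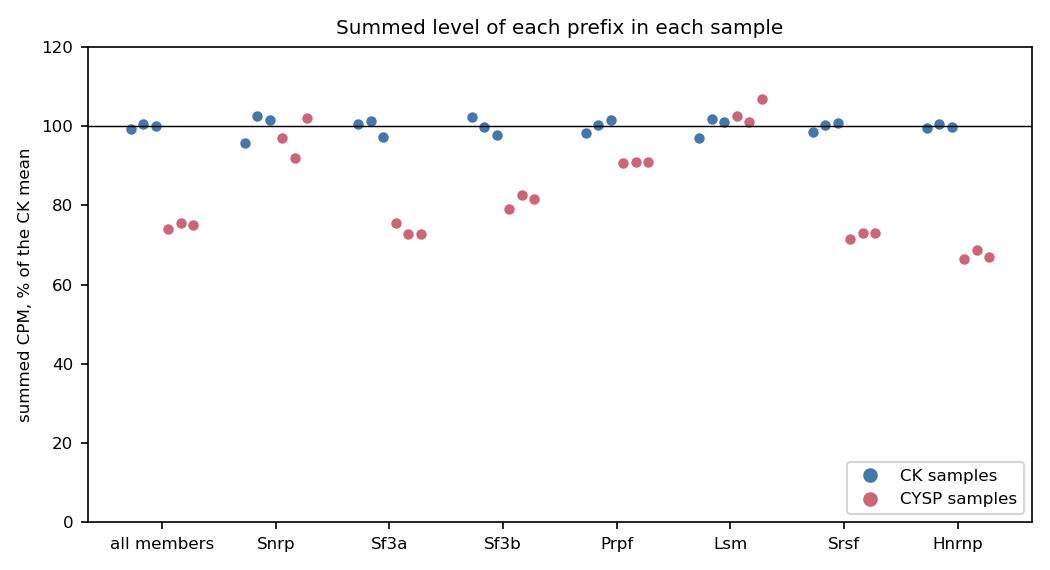
Summed CPM of all members and of each prefix in each of the 6 samples, as a percentage of the CK mean. The CYSP samples lie below every CK sample for Sf3a, Sf3b, Prpf, Srsf and Hnrnp, with Hnrnp lowest at a ratio of 0.674, and overlap them for Snrp, where the ratio is 0.971.

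U1, U2, U4 and U5 each carry a ring of 7 Sm proteins, Snrpb, Snrpd1, Snrpd2, Snrpd3, Snrpe, Snrpf and Snrpg. Of the 7 genes 3 fell (42.9%, beside 37.8% of all genes), 2 rose (28.6%, beside 38.2%) and 2 did not pass, shares near those of all genes. Snrpb, the SmB protein of most cells, was at 63.9, 67.1 and 68.1 CPM in CK and at 46.8, 42.6 and 49 CPM in CYSP. All CYSP samples were below all CK samples, with a log2 fold change of -0.52 ± 0.058 (SE; edgeR adjusted p = 5.66e-13). Snrpd1 fell as well (-0.35 ± 0.072), and Snrpd3 fell by a log2 fold change of 0.28 on the same scale, a call that was lost when CK replicate 3 or CYSP replicate 2 was left out. In the other direction, Snrpd2 stood at 25.2, 27.6 and 27.6 CPM in CK and at 43.2, 39.3 and 47.2 CPM in CYSP. It was higher in every CYSP sample, 1.61-fold (log2 0.69 ± 0.073; edgeR adjusted p = 8.32e-14). Snrpg rose 1.47-fold, from 12.7 ± 1.72 to 18.6 ± 2.98 CPM (log2 0.56 ± 0.11; edgeR adjusted p = 8.52e-06). Its second identifier, below 1.2 CPM in every sample and overlapping between groups, was also called higher at an edgeR adjusted p of 0.0372, and that call was lost under several settings, among them library size scaling, the DESeq2 Wald test, no filter and FPKM, and when CK replicate 1 or 2 or CYSP replicate 1 or 3 was left out. Snrpf did not pass, and its CYSP samples were spread over 12.9, 16.8 and 23.1 CPM. The Snrpe gene itself was at 1.32 ± 0.327 CPM in CK, and a copy, Snrpel1, at 24.2 ± 1.12 CPM. Reads may be split between such copies, so the values of Snrpe and Snrpel1 are uncertain.

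Snrpn had the largest change of all members. It encodes SmN, which takes the place of SmB in the ring and is best known from neurons, and its gene lies in an imprinted region. Snrpn was at 6.94, 6.16 and 4.77 CPM in CK and at 37.1, 38.8 and 40.7 CPM in CYSP. The groups were far apart, with CYSP 6.5-fold higher (log2 2.70 ± 0.1; edgeR adjusted p = 1.34e-37). Per length, Snrpn at 4.17 ± 0.766 FPKM was well under Snrpb at 27.9 ± 0.798 FPKM in CK, and in CYSP it was the higher of the pair, at 25.7 ± 1.27 FPKM beside 18.1 ± 1.24 FPKM. Snurf, which shares a transcript with Snrpn, was listed with 0 counts in every sample, and the capital-letter copy SNRPN had at most 3 counts in a sample. Other genes known from the same imprinted region, chosen after their values were seen, did not share one direction: Ndn fell from 18.4 ± 0.315 to 3.67 ± 0.49 CPM, Mkrn3 rose from 1.13 ± 0.601 to 3.76 ± 0.314 CPM and Ube3a did not pass at 67.4 ± 2.06 and 63.9 ± 1.45 CPM.

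**Figure D3:**
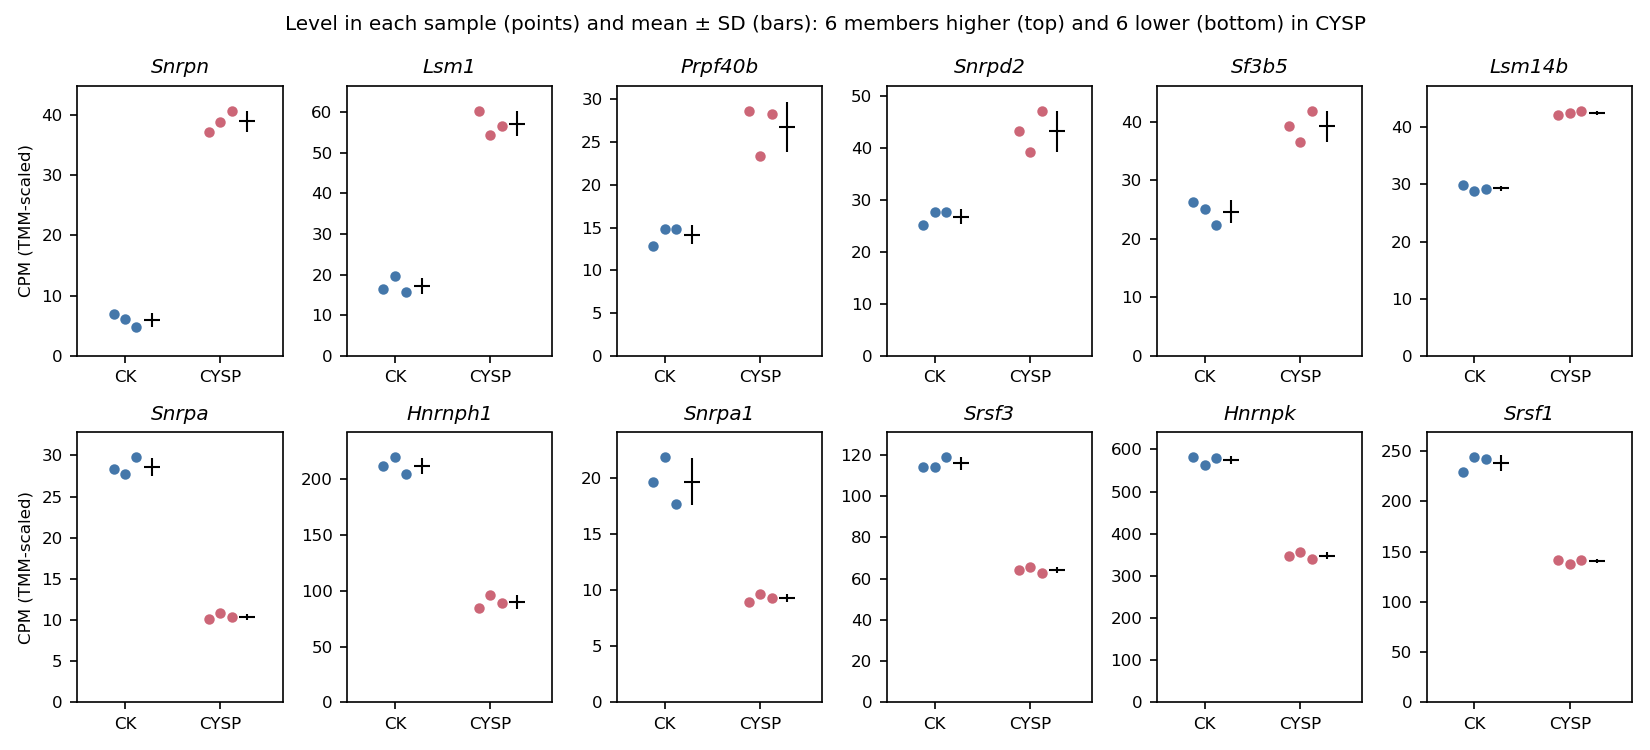
CPM of 12 members in each sample (points) with the mean and SD (bars), on axes that start at 0. The top row shows 6 members that were higher in CYSP and the bottom row 6 that were lower, and in none of the 12 do the groups overlap.

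The proteins that are particular to U1 or U2 among the Snrp genes were lower or did not pass. Snrpa encodes the U1 protein that binds a stem-loop of the U1 RNA, and the gene had the largest fall of all members. Its levels were 28.4, 27.7 and 29.8 CPM in CK and 10.1, 10.8 and 10.4 CPM in CYSP. CK was 2.74-fold above CYSP (log2 -1.46 ± 0.097; edgeR adjusted p = 2.57e-23). Snrpa1, which encodes a leucine-rich protein of U2, was at 19.7, 21.9 and 17.7 CPM in CK and at 8.93, 9.66 and 9.35 CPM in CYSP, again without overlap, with a log2 fold change of -1.08 ± 0.11. Snrpc, whose protein helps U1 settle on the 5′ splice site, fell less, from 48 ± 1.95 to 39.1 ± 3.52 CPM. Snrpb2, whose protein pairs with that of Snrpa1 in U2, had overlapping groups at 33.8 ± 1.55 and 33.1 ± 1.26 CPM. Snrnp70, the third protein particular to U1, whose symbol lies outside the prefix rule, was 139 ± 0.757 CPM in CK and 148 ± 1.2 CPM in CYSP. Its rise was only 0.09 on the log2 scale (edgeR adjusted p = 0.0286), and the call was lost with upper quartile or library size scaling.

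The SF3A and SF3B subcomplexes of U2 clamp the branch point region of the intron. All 3 Sf3a genes (100%) and 5 of 6 Sf3b genes (83.3%) fell, beside 37.8% of all genes tested. Sf3b1, the large scaffold that holds the branch site and the gene with the highest level per length in this group (69 FPKM over all samples), was at 368, 360 and 355 CPM in CK and at 308, 331 and 327 CPM in CYSP. The groups did not overlap, but the change was small, at a log2 fold change of -0.17 ± 0.032. The larger falls were those of Sf3b4 (77.1 ± 4.47 to 48.6 ± 2.59 CPM, log2 -0.67 ± 0.056), Sf3b3 (-0.56 ± 0.043) and Sf3b2 (-0.47 ± 0.04). Sf3b5, a small subunit that sits beside Sf3b3, went the other way: its levels were 26.2, 25.1 and 22.4 CPM in CK and 39.3, 36.5 and 41.9 CPM in CYSP. Every CYSP sample was above every CK sample, 1.59-fold (log2 0.67 ± 0.076; edgeR adjusted p = 9.93e-13). In SF3A, Sf3a2 fell from 28.4 ± 2.08 to 17.3 ± 1.72 CPM (-0.71 ± 0.09), Sf3a3 from 50.4 ± 0.189 to 38 ± 1.41 CPM and Sf3a1, which reaches to U1, from 71.9 ± 3.04 to 56.1 ± 1.5 CPM.

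The Prpf genes are named after yeast pre-mRNA processing mutants and act at many steps. Of 13, 8 fell (61.5%, beside 37.8% of all genes), 2 rose (15.4%, beside 38.2%) and 3 did not pass. Their median log2 fold change was -0.17. At a further requirement of a 1.5-fold change, 1 fell and 1 rose (7.69% each, beside 21.5% and 24.0% of all genes). Prpf8, the scaffold of the catalytic centre, was at 353, 356 and 354 CPM in CK and at 368, 359 and 360 CPM in CYSP. The samples did not overlap, but the change of 0.03 ± 0.03 did not pass the test (edgeR adjusted p = 0.33), and its sign turned to -0.05 when only library size was used for scaling. Prpf38a, which enters before activation, had the largest fall of this prefix, from 26.5 ± 1.66 to 17.6 ± 0.809 CPM (log2 -0.59 ± 0.09). Prpf6, which bridges U5 to U4 and U6, fell from 91.7 ± 1.4 to 69.7 ± 3.07 CPM. Prpf4b, a kinase of the splicing machinery, fell from 93.6 ± 4.89 to 76.3 ± 5.19 CPM (-0.29 ± 0.05).

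Prpf40b, whose protein is tied to U1, was 1 of the 2 Prpf genes that rose. Its levels were 12.9, 14.8 and 14.9 CPM in CK and 28.7, 23.4 and 28.3 CPM in CYSP. The CYSP samples were all above the CK samples, 1.9-fold (log2 0.92 ± 0.096; edgeR adjusted p = 3.87e-14). The RefSeq span of Prpf40b overlaps that of Mcrs1, which fell (log2 -0.55). Prpf18, a factor of the second catalytic step, rose by 0.22 ± 0.066 on the log2 scale, a call that was lost with library size scaling (0.14) and on FPKM.

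Lsm proteins form rings like the Sm proteins. The ring of Lsm2 to Lsm8 holds U6 RNA in the nucleus, and Lsm1 replaces Lsm8 in a cytoplasmic ring that takes part in the decay of mRNA. Of the 7 genes of the nuclear ring 3 fell (42.9%, Lsm2, Lsm3 and Lsm6), Lsm8 rose (14.3%) and 3 did not pass. Over all 13 tested Lsm genes 5 fell (38.5%), or 8 with library size scaling, and 3 rose (23.1%) under both scalings. Of all genes tested 37.8% fell and 38.2% rose. With TMM scaling the shares that fell were thus near that of all genes, and the shares that rose were below it. The shares of all genes with library size scaling are not given here, so the 8 are not set beside them. Lsm2 was at 19.3, 20 and 20.8 CPM in CK and at 12.8, 12.3 and 9.42 CPM in CYSP. The groups were apart, with a log2 fold change of -0.80 ± 0.11 (edgeR adjusted p = 4.31e-10). Lsm6 fell from 13.5 ± 1.28 to 8.89 ± 0.426 CPM (-0.60 ± 0.12), and Lsm3 by 0.36 on the log2 scale, a call that was lost without CYSP replicate 2. Lsm8 rose from 17.5 ± 1.22 to 21.7 ± 0.795 CPM (0.32 ± 0.094).

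Lsm1 had the second largest rise of all members. It was at 16.4, 19.6 and 15.7 CPM in CK and at 60.4, 54.4 and 56.5 CPM in CYSP. The groups were far apart, with CYSP 3.32-fold higher (log2 1.73 ± 0.075; edgeR adjusted p = 2.12e-34). Its RefSeq span overlaps that of Bag4, a chaperone regulator named here after its values were seen, which rose from 37.2 ± 2.61 to 90.7 ± 2.39 CPM. Reads from the stretch they share may not be told apart, because the sources do not state if strand was used in counting. Lsm14b, of messenger particles outside the spliceosome, rose 1.45-fold from 29.3 ± 0.491 to 42.5 ± 0.397 CPM (log2 0.54 ± 0.069). Its relative Lsm14a, the Lsm gene with the highest level per length over all 6 samples (35.5 FPKM), fell from 88.7 ± 2.21 to 66.1 ± 3.51 CPM (-0.42 ± 0.05). Lsm10 and Lsm11 belong to the U7 particle, which trims histone mRNAs: Lsm11 fell from 10.3 ± 0.857 to 7.5 ± 0.93 CPM (-0.45 ± 0.14), and Lsm10, at 4.74 ± 1.23 and 3.94 ± 0.654 CPM, did not pass.

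Of 11 tested SR protein genes 8 fell (72.7%, beside 37.8% of all genes), Srsf12 rose (9.09%, beside 38.2%), and Srsf5 and Srsf9 did not pass. Srsf3, the smallest of the family, was at 114, 114 and 119 CPM in CK and at 64, 65.7 and 62.9 CPM in CYSP. The CK samples were 1.8-fold above the CYSP samples (log2 -0.85 ± 0.047; edgeR adjusted p = 8.82e-28). Srsf1, the founding member, was at 229, 244 and 242 CPM in CK and at 142, 138 and 142 CPM in CYSP, also without overlap (log2 -0.76 ± 0.037; edgeR adjusted p = 1.86e-31). Srsf2, a nuclear member that binds exonic enhancers, fell from 65.7 ± 2.91 to 47.1 ± 0.221 CPM (-0.48 ± 0.057). Srsf5, the SR gene with the highest level per length (67.7 FPKM), had overlapping groups at 82.5 ± 1.97 and 84.1 ± 2.66 CPM. Srsf3 and Srsf5 exchanged places: per length Srsf3 was above Srsf5 in CK, at 83.5 ± 3.64 beside 68.7 ± 0.813 FPKM, and below it in CYSP, at 43.4 ± 1.1 beside 66.6 ± 1.41 FPKM. The rise of Srsf12 was at a low level, from 1.26 ± 0.273 to 3.16 ± 0.684 CPM (log2 1.32 ± 0.29; edgeR adjusted p = 4.14e-05).

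Nearly all Hnrnp genes were lower in CYSP. Of 20 tested, 19 fell (95%, beside 37.8% of all genes) and none rose (beside 38.2%). The median log2 fold change was -0.58, and 10 fell by at least 1.5-fold (50%, beside 21.5% of all genes). Hnrnph1, which binds runs of G, had the largest fall: it was at 212, 220 and 205 CPM in CK and at 84.6, 96.6 and 89 CPM in CYSP. CK was 2.36-fold above CYSP without overlap (log2 -1.24 ± 0.042; edgeR adjusted p = 9.3e-41). Hnrnph3 of the same subfamily fell from 29.1 ± 1.86 to 15.7 ± 0.563 CPM (-0.89 ± 0.09). Hnrnph2, also of that subfamily, was the one Hnrnp gene that did not pass, at 105, 97.2 and 97.7 CPM in CK and 96.5, 101 and 99.7 CPM in CYSP. With library size scaling it was called lower at a log2 fold change of -0.10, beside a shift of -0.08 in the median of all genes.

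The most abundant Hnrnp genes fell by less than Hnrnph1. Hnrnpab had the highest level per length of all members (245 FPKM) and went from 448 ± 5.91 to 330 ± 2.7 CPM (log2 -0.44 ± 0.03). Hnrnpk, which binds C-rich RNA, was at 582, 563 and 580 CPM in CK and at 348, 357 and 341 CPM in CYSP. All CYSP samples were below all CK samples, with a log2 fold change of -0.72 ± 0.029 (edgeR adjusted p = 2.63e-36). Hnrnpa1, an exon silencer, fell from 321 ± 7.72 to 205 ± 7.95 CPM (-0.65 ± 0.034), its relative Hnrnpa2b1, which also sorts RNAs in axons and dendrites, from 399 ± 10.3 to 265 ± 8.51 CPM (-0.59 ± 0.032), and Hnrnpc, which binds U tracts, from 162 ± 6.43 to 118 ± 0.954 CPM (-0.45 ± 0.04). Hnrnpdl fell from 104 ± 3.85 to 57.3 ± 2.03 CPM (-0.86 ± 0.05). The RefSeq spans of 3 of these genes overlap a neighbour that also fell: Enoph1 (log2 -1.12) for Hnrnpdl, Rmi1 (-0.93) for Hnrnpk and Cbx5 (-0.49) for Hnrnpa1.

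The deposited counts and FPKM together imply the length by which each gene was normalized in each sample, which can differ between samples where a program weighs a gene's transcripts by their estimated shares. The sources used here do not give how the authors set it. Of 9809 genes with at least 50 counts in every sample, 420 (4.28%) differed between groups by at least 0.05 on the log2 scale without overlap, and 5 of 75 members did. The 5 are named after their values were seen. For Srsf7, an SR protein with a zinc knuckle, the implied length was 1501, 1495 and 1532 bases in CK and 1641, 1733 and 1729 bases in CYSP. It was thus longer in every CYSP sample, by 0.17 on the log2 scale. Srsf6 (by 0.11), Srsf9 (by 0.10) and Hnrnpa2b1 (by 0.08) were also longer in CYSP, and Hnrnpa1 was shorter, at 1504, 1454 and 1415 bases in CK and 1396, 1408 and 1405 bases in CYSP. For all genes the middle of the distribution of this shift ran from -0.00538 to -0.002 on the log2 scale (first and last quartile). No test was run on these lengths.

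**Figure D4:**
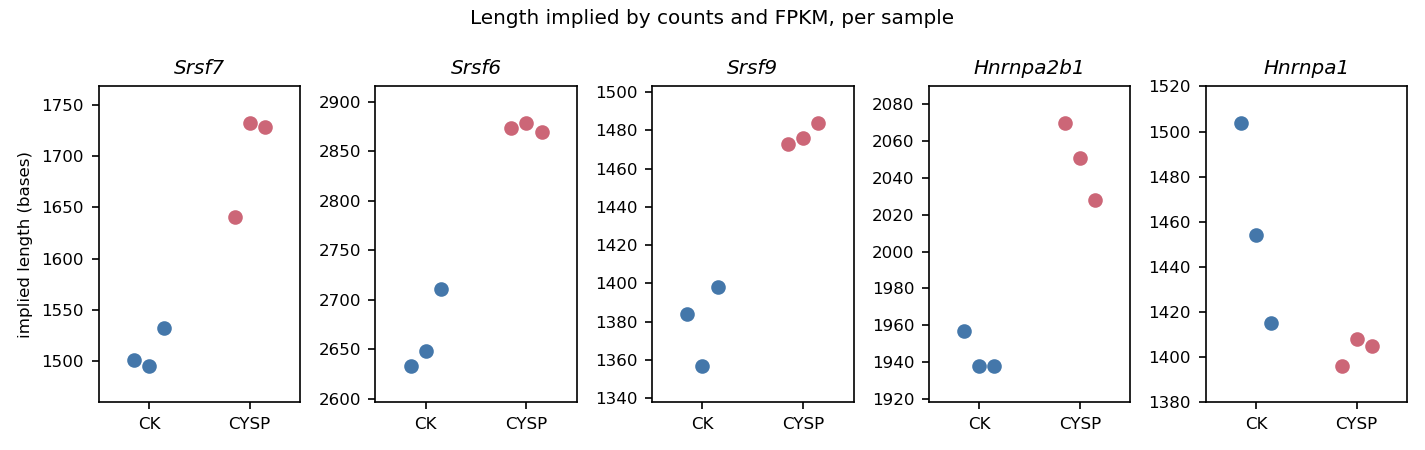
Length in bases implied by the deposited counts and FPKM in each sample, on axes that do not start at 0. Shown are the 5 members that differed between groups by at least 0.05 on the log2 scale without overlap. Srsf7, Srsf6, Srsf9 and Hnrnpa2b1 lie higher in CYSP, and Hnrnpa1 lies lower.

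Other splicing genes were read from 8 lists of 180 symbols, of which 163 were tested: 96 were lower (58.9%, beside 37.8% of all genes), 28 higher (17.2%, beside 38.2%) and 39 did not pass, and the median log2 fold change was -0.26. Among 32 other proteins of the U1, U2, U5 and joined particles 21 fell (65.6%) and 3 rose (24 and 1 with library size scaling). The shares of all genes under library size scaling are not given here. The larger falls were those of Ddx39b, a helicase of early assembly and export (-0.87 ± 0.052), Puf60, which acts near the 3′ splice site (-0.71 ± 0.068), and U2af1, which reads the AG at its end (-0.65 ± 0.071). Snrnp200, the helicase that unwinds U4 from U6, fell by 0.12 on the log2 scale. Of 13 proteins of the minor spliceosome, which removes a rare class of introns, 4 fell (30.8%) and 3 rose (23.1%), both under the shares of all genes, among them Rnpc3 (-0.77 ± 0.12) and Zrsr2 (0.51 ± 0.12). In the list of Prp19 complex and catalytic step proteins, 15 of 30 fell (50%, from 10 with the DESeq2 Wald test to 20 on FPKM), most of all Cwc22 (-1.03 ± 0.08), which brings an exon junction protein to the spliceosome, and 4 rose by at most 0.33 (1 with library size scaling, none on FPKM).

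The factors that build the Sm rings were also read. Of 14 genes of the SMN complex and of Sm methylation 8 fell (57.1%, beside 37.8% of all genes) and 2 rose (14.3%, beside 38.2%). With library size scaling 8 fell and 1 rose, and the shares of all genes under that scaling are not given here. Smn1, whose protein loads Sm rings onto their RNAs, fell from 34.5 ± 2.42 to 20.6 ± 0.651 CPM (-0.74 ± 0.08). Gemin8, a small subunit of the same complex, was at 8.41, 8.04 and 8.58 CPM in CK and at 26.7, 25.3 and 27.6 CPM in CYSP. It was higher in all CYSP samples (log2 1.67 ± 0.1; edgeR adjusted p = 4.55e-25). The Gemin8 symbol stands on 3 identifiers, and as for every listed symbol only the one with the most counts was read. Of 19 genes of the exon junction complex and of mRNA export 13 fell (68.4%, beside 37.8%) and 3 rose (15.8%, beside 38.2%). Casc3 and Alyref, both at -0.96, were among those that fell. Among 8 genes for kinases and a phosphatase of SR proteins 4 rose (50%, beside 38.2%) and 2 fell (25%, beside 37.8%). With library size scaling 2 rose and 3 fell. Ppm1g, a phosphatase, rose from 97.8 ± 3.31 to 169 ± 7.02 CPM (0.79 ± 0.042), and Srpk1, an SR protein kinase, fell from 78.2 ± 1.89 to 55.6 ± 2.3 CPM (-0.49 ± 0.053).

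The neuron-associated regulators were divided. Of 19 listed, 12 had enough counts to test, of which 7 rose (58.3%) and 4 fell (33.3%), beside 38.2% and 37.8% of all genes. Their median log2 fold change was 1.60. A list whose low members pass the count filter through the group in which they are high tends to hold genes that differ. Nova2, Srrm3, Celf4 and Celf5 passed it in this way, through CYSP. The shares are therefore not read as a result about the list, and its median is not set against that of the members. Nova2 had no count in the 3 CK samples and 204 counts in CYSP, at 4.37, 3.85 and 5.12 CPM, which is at least 74.4-fold higher against a floor of 3 counts over the CK group. Nova1 rose from 0.9 ± 0.275 to 4.11 ± 1.17 CPM (log2 2.19 ± 0.3; edgeR adjusted p = 5.02e-10), and Celf3 from 4.14 ± 0.609 to 8.34 ± 2.31 CPM (1.01 ± 0.18). Celf4, Celf5, Khdrbs3 and Srrm3, named after their values were seen, rose as well, with Celf4 at 0.337 ± 0.0858 and 8.67 ± 1.54 CPM. Srrm3 had 3 counts in CK and 53 in CYSP, a ratio of 19.3 with a 95% Clopper-Pearson interval from 6.27 to 96.7 that covers counting error only. Elavl4 and Rbfox3 were at 0 counts in every sample, and Srrm4, with 14 counts in CK and 13 in CYSP, was under the filter. Rbfox1 (11 counts in CK, 0 in CYSP) and Khdrbs2 (19 and 3), also under it, were lower in CYSP without overlap, and without a filter 6 genes of the list were called lower.

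The polypyrimidine tract proteins, which hold neuronal exons back, fell together. Ptbp1 was at 410, 420 and 404 CPM in CK and at 265, 247 and 250 CPM in CYSP. The groups did not overlap, with a log2 fold change of -0.70 ± 0.032 (edgeR adjusted p = 7.77e-33). Ptbp2, the form found in young neurons, fell from 16.4 ± 1.57 to 9.31 ± 0.423 CPM (-0.82 ± 0.12) and Ptbp3 from 139 ± 4.45 to 96.6 ± 1.94 CPM. Rbfox2 fell from 197 ± 7.78 to 166 ± 7.31 CPM (-0.25 ± 0.038). Of 35 other regulators 29 fell (82.9%, beside 37.8% of all genes) and 2 rose (5.71%, beside 38.2%). Mbnl1 and Mbnl2, which steer the switch from fetal to adult exons, fell by 0.97 and dropped by 0.90 on the log2 scale, and Fubp1 fell by 1.04. Rbm38 rose from 2.04 ± 0.738 to 13 ± 1.1 CPM (2.68 ± 0.18), and Taf15 by 0.25.

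**Figure D5:**
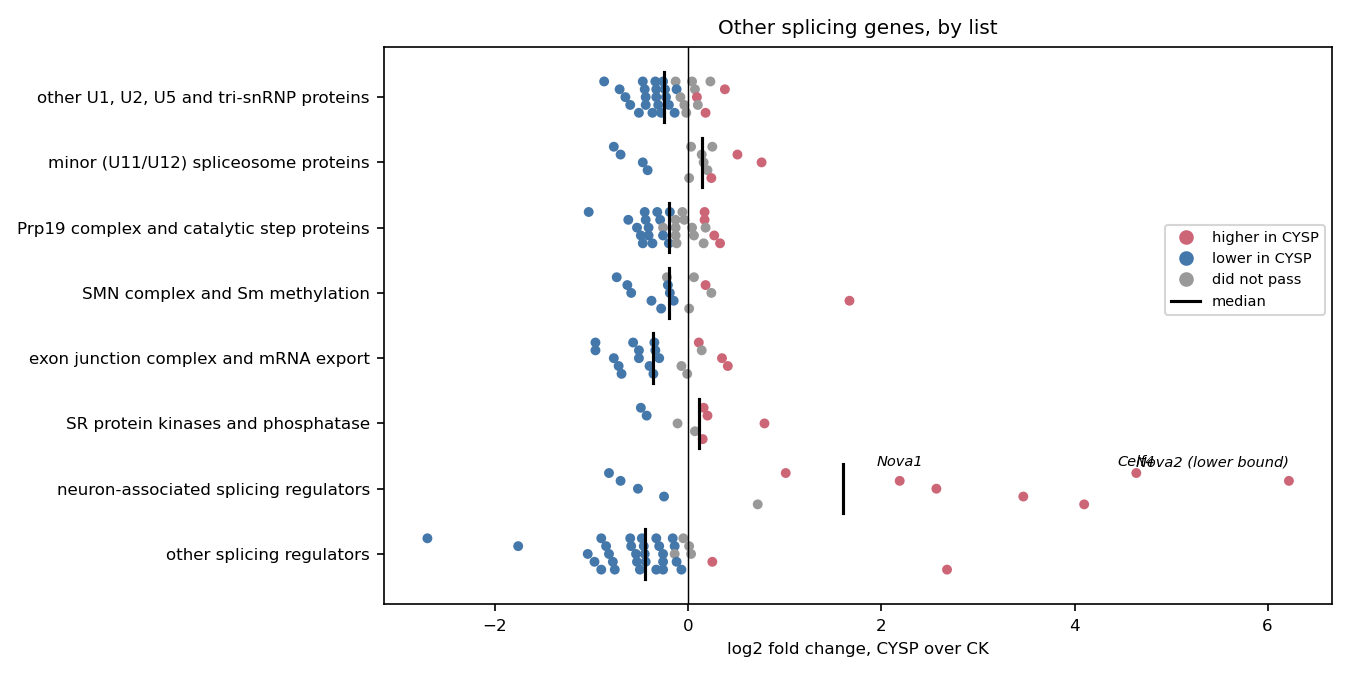
Log2 fold change of CYSP over CK for the 163 tested genes of the 8 further lists, with a black line at the median of each list. Nova2, which had no count in CK, is drawn at its lower bound of 6.22, and the neuron-associated list has the points farthest to the right.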

How the data were processed

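RNA was extracted with Trizol and enriched on oligo(dT) beads, per the labels' protocols. The submitters' processing notes name fastp 0.18.0, HISAT2, StringTie 1.3.1 and RSEM, without saying what each did. The build, annotation, counting tool and strand setting were not given in the sources used here. Per the file headers, the deposited table holds a count and an FPKM value for every gene in every sample. Deposited counts would be rounded estimates if they came from RSEM. The authors also deposited their log2 fold change, p-value and adjusted p-value per gene. At an adjusted p under 0.05, members in the authors' deposited table were higher in 8 cases and lower in 56. The shares of all genes in the authors' values are not given here, so these counts are not read as a result about the members.

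Samples were grouped by title. Counts went through filterByExpr, TMM scaling and the robust quasi-likelihood test of edgeR 4.0.16 (R 4.3.3), with Benjamini-Hochberg adjustment over 12623 genes and a threshold of 0.05. Standard errors come from the log2 fold change and its F statistic. CPM is given as mean ± SD over 3 samples. The implied length is a gene's share of all counts divided by its FPKM, in bases. It was then scaled so that every sample had the same median over the genes with at least 50 counts in every sample. The procedure was tested on simulated counts with known changes. Alternatives were other scalings, DESeq2 1.42.0, limma 3.58.1 (voom, and trend on log2 FPKM), other filters, each sample removed, a replicate block, an assumed spread and a required fold.

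The members and lists were chosen with earlier results of these data known. The rule for named members takes, per prefix, the one with the highest mean FPKM and the 3 largest changes in each direction (called, averaging at least 10 CPM, groups not overlapping), members whose call is lost or turns under another scaling, and 18 fixed symbols. From each further list it takes up to 3 genes per direction averaging at least 5 CPM, and always 10 fixed symbols. The Snrpd1, Snrpd3, Snrpc, Snrpb2, Snrpe, Snrpel1, Snrpf, Lsm3, Hnrnph2, Srsf9 and Srsf12 values were added to complete a ring or family. Listed symbols that were not matched (5) are not analysed here, and 1 member that the rule takes is not reported here. Promoters were matched to the RefSeq table (GRCr8) by symbol, taking the first listed start.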

Additional observations from a re-analysis of the deposited data

How the results depend on the processing

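Of the 65 members called, none was called in the opposite direction under any of the 20 alternatives. Of those not called, Prpf8 and Srsf5 turned to -0.05 and Prpf31 to -0.08 with library size scaling. The counts of members higher and lower in CYSP were 11 and 54 with DESeq2 size factors, with upper quartile scaling and with limma-voom, 10 and 54 with the DESeq2 Wald test and without a filter, and 9 and 54 with a minimum of 50 counts in 3 samples. They were 9 and 59 with library size alone, which shifts the median of all genes by -0.08 on the log2 scale, and 9 and 57 on log2(FPKM + 1) and log2(FPKM + 0.1). Leaving out 1 sample at a time gave 10 to 12 higher and 52 to 55 lower. The calls depended on the size of the spread between samples, whose common coefficient of variation was estimated at 0.0393. With an assumed coefficient of 0.2 there were 7 higher and 21 lower, and with 0.4 there were 2 higher (Snrpn and Lsm1) and 2 lower (Snrpa and Hnrnph1). A required 1.5-fold change left 7 and 19, and a test against a 1.2-fold change (glmTreat) left 8 and 42. A fit with a replicate block had 11 higher and 54 lower, and it changed no call. Deviations of same-numbered samples correlated at 0.00444, -0.0133 and 0.0204 in the replicate pairs. Such small values cannot decide if same-numbered samples shared a culture, animal or batch, because purely technical variation would be uncorrelated in any design. Depth limits Snrpe, Lsm5, Lsm10, Srsf12 and the second Snrpg, all under 5 CPM on average.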
